A study of Mus musculus with 12 samples.

Results

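The genes described here are 9 genes of meiotic crossing over, Mlh3, Msh4, Msh5, Ccnb1ip1, Rnf212, Hfm1, Mus81, Tex11 and Shoc1, taken by name from 21887 protein-coding genes of the autosomes and sex chromosomes. For each gene, every peak was collected that touched the annotated gene or the 5 kb on either side of it. The study mapped INO80, the ATPase of a chromatin remodelling complex, and H2A.Z, a histone variant found in nucleosomes around gene starts, by chromatin immunoprecipitation and sequencing (ChIP-seq) of spermatogenic cells from mouse testes at postnatal day 18. All mice were of a mixed background. INO80 was precipitated from wild-type cells. H2A.Z was precipitated from Ino80WT cells and from Ino80cKO cells, in which Ino80 was deleted by Stra8-Cre, in which a promoter active in germ cells before meiosis drives the recombinase. Cells that had not recombined could remain in the Ino80cKO testes, and whether the Ino80WT mice carried the Cre is not given in the sources used here.

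There were 12 libraries in 6 groups of 2, counting the input of each ChIP group. The values below come from 3 peak lists, 1 for each ChIP group, with 18139 INO80 peaks, 33827 wild-type H2A.Z peaks and 26199 knockout H2A.Z peaks. The lists give the position of each peak and no height, so width is the only size available. No value has a replicate error, the depth is unknown, and no test between the genotypes was possible. A site listed in 1 genotype alone may therefore be only slightly stronger there. Peaks do not measure expression, so the cell type could not be checked by them. Peaks lay at 4 of 4 germ cell markers for INO80, 4 for wild-type H2A.Z and 3 for knockout H2A.Z, and at 5, 5 and 4 of 8 markers of somatic testis cells, where the shares over all protein-coding genes were 63.3%, 73.6% and 70.1%.

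Crossovers are reciprocal exchanges between homologous chromosomes, and at least 1 is needed per chromosome pair for the homologues to separate correctly. In the main pathway, a helicase and a set of DNA-binding factors shape and hold recombination intermediates, ring-finger ligases decide which of them are kept, and a mismatch-repair endonuclease cuts the chosen ones. A minor pathway uses structure-selective nucleases. The first wave of mouse spermatocytes is passing through meiotic prophase at the age studied.

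The gene start is a transcription start from the RefSeq promoter table of GRCm38.p6 (mm10). The table gives starts for 7 of the 9 genes, all read from the reverse strand. Tex11 and Shoc1 have no entry. The 250 bases before the start are shown for 4 genes that carry the different patterns found here. Ccnb1ip1 and Mus81 had H2A.Z at the start in the wild type alone, Rnf212 had H2A.Z in both genotypes without INO80, and Hfm1 had all 3. Each run is 5′ to 3′ on the strand of the gene. Capitals mark matches, on either strand, that lie wholly within the bases shown, to any of the motifs spelled out further on.
Ccnb1ip1, chr14:50795729-50795978, reverse strand: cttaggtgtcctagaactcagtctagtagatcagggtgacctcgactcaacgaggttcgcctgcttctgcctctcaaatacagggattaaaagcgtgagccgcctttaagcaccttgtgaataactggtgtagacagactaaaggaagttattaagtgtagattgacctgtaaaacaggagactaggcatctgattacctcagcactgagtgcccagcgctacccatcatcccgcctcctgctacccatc
Mus81, chr19:5488380-5488629, reverse strand: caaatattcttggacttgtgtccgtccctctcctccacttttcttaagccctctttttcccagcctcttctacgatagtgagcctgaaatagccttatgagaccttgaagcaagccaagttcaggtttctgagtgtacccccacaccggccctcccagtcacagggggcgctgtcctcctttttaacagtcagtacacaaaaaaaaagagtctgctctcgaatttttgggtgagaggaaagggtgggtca
Rnf212, chr5:108775028-108775277, reverse strand: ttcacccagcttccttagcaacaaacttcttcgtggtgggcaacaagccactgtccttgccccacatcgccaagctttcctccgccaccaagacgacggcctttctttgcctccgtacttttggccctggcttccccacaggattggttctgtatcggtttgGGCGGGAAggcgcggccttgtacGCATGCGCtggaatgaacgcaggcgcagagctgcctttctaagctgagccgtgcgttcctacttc
Hfm1, chr5:106925891-106926140, reverse strand: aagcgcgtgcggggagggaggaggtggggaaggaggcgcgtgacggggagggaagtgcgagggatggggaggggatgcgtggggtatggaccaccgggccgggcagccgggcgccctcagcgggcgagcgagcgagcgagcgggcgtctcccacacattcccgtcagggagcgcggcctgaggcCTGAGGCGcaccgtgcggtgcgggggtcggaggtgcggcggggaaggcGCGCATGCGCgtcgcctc
Of these 250 bases, the wild-type H2A.Z peak covered 214 at Ccnb1ip1 and none at Mus81, where the INO80 peak covered 250. At Rnf212 the H2A.Z peaks of both genotypes covered 250 bases each. At Hfm1 the peaks of all 3 lists did.

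In the windows of gene body and 5 kb on both sides, INO80 peaks were found at 6 of 9 genes, wild-type H2A.Z at 8 and knockout H2A.Z at 7. Over all 21887 protein-coding genes the shares were 63.3%, 73.6% and 70.1%. H2A.Z was listed in both genotypes at 7 of the 9 genes (69.6% of all genes). It was wild type only at 1, Mus81 (4.00% of all genes), knockout only at 0 (0.571%) and in neither genotype at 1, Tex11. Tex11 had no peak of any list in its window, as was found for 25.0% of all genes. Long genes have a greater chance of holding a peak somewhere, so the gene starts were also compared. Within 1 kb of the start, wild-type H2A.Z was present at 7 of 7 genes (63.9% of 17492 genes with a listed start), INO80 at 5 (56.0%) and knockout H2A.Z at 5 (60.9%). All 3 lists met at 4 starts, those of Mlh3, Msh4, Msh5 and Hfm1 (52.6% of all). H2A.Z was wild type only at 2 starts, those of Ccnb1ip1 and Mus81 (3.61% of all), and knockout only at 0 (0.572%). No start lacked peaks of all 3 lists (34.1% of all). With so few genes these counts describe the genes and set them apart from no others.

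**Figure D1:**
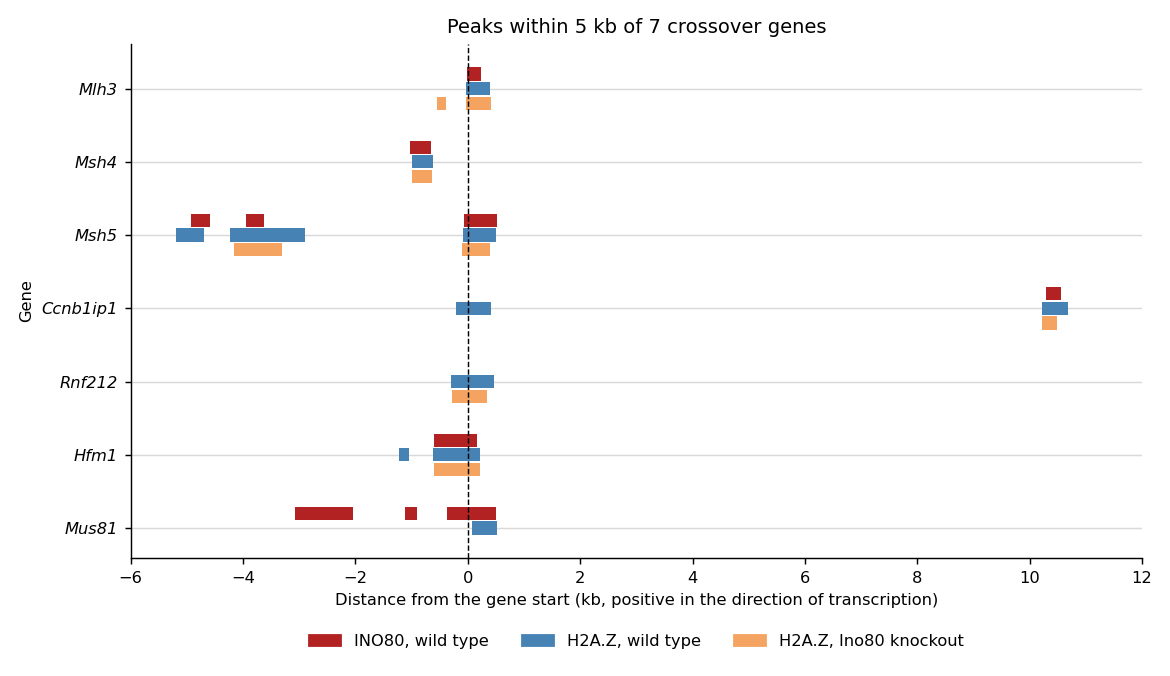
Peaks of the 3 lists drawn against distance from the gene start in kb, positive in the direction of transcription, for the 7 genes with a listed start. Wild-type H2A.Z lies within 1 kb of every start drawn, knockout H2A.Z is missing at Ccnb1ip1 and Mus81, and INO80 is missing at Ccnb1ip1 and Rnf212; the bars near 10 kb at Ccnb1ip1 belong to the neighbouring gene Ttc5.

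MSH4 and MSH5 form the clamp that holds recombination intermediates. Msh5 (chromosome 17, 35028605 to 35046997) had 1 peak of each list across its start: INO80 at 35046110 to 35046691 (582 bp), wild-type H2A.Z at 35046117 to 35046713 (597 bp) and knockout H2A.Z at 35046228 to 35046720 (493 bp). The knockout peak reached 394 bp downstream of the start, against 505 bp for the wild-type peak, and lay over 81.4% of the latter. Msh5 also has a close neighbour, Clic1, which encodes a chloride intracellular channel protein and starts at 35050243. There the wild-type H2A.Z peak spanned 1334 bp and the knockout peak 865 bp. A second wild-type peak of 509 bp within Clic1 had no knockout partner, although an INO80 peak of 327 bp overlapped it. These differences lie at the neighbour and not at the start of Msh5.

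At Msh4 (chromosome 3, 153857141 to 153906138) the peaks did not lie over the listed start. The INO80 peak (359 bp), the wild-type H2A.Z peak (371 bp) and the knockout H2A.Z peak (354 bp) were centred 842, 810 and 817 bp upstream of it. They were still inside the annotated gene, 226, 252 and 253 bp from its outer end, so they sit closer to the end of the annotated gene than to the start in the promoter table. With a window of 500 bp, Msh4 has no peak at its start. The H2A.Z peaks of both genotypes were nearly the same interval: the knockout peak lay wholly inside the wild-type peak and covered 95.4% of it.

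Mlh3 (chromosome 12, 85234466 to 85270647) encodes a subunit of the mismatch-repair endonuclease that resolves most crossovers. Its INO80 peak of 261 bp (85270350 to 85270610) was the narrowest INO80 peak across a start among these genes and lay wholly inside the H2A.Z peaks of both genotypes. The H2A.Z peak over the start was 445 bp wide in wild-type cells and 453 bp in knockout cells. Mlh3 also had the single H2A.Z peak of the whole set that was listed in the knockout alone, 174 bp at 85270981 to 85271154, centred 468 bp upstream of the start. It was narrow, at percentile 11.7 of the widths in its list, and the nearest wild-type peak was 348 bp away.

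Hfm1 (chromosome 5, 106840193 to 106926712), the helicase of the pathway, had the widest H2A.Z peak at a start in either genotype. The wild-type peak spanned 845 bp (106925665 to 106926509), the knockout peak 821 bp (106925672 to 106926492) and the INO80 peak 763 bp (106925733 to 106926495). The 3 intervals nearly coincided, with 97.2% of the wild-type H2A.Z peak and 90.3% of it covered by the knockout peak and the INO80 peak. A further wild-type peak of 166 bp, centred 1134 bp upstream, had no partner in the knockout and was at percentile 7.82 of the widths in its list.

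The ring-finger proteins RNF212 and HEI10, the product of Ccnb1ip1, act against each other on the MSH4 and MSH5 clamp: RNF212 holds it on the chromosomes and HEI10 promotes its removal. Neither gene had INO80 at its start. Rnf212 (chromosome 5, 108728105 to 108775067) had H2A.Z across the start in both genotypes. The wild-type peak was 768 bp wide (108774553 to 108775320) and the knockout peak 621 bp (108774692 to 108775312). The nearest INO80 peak lay 79252 bp from the wild-type peak. H2A.Z in both genotypes without INO80 was found at 7.75% of all starts. Ccnb1ip1 (chromosome 14, 50789249 to 50795728) had a wild-type H2A.Z peak of 620 bp across the start (50795323 to 50795942), and the nearest knockout peak was 8929 bp away. The nearest INO80 peak was 9886 bp away. A start with wild-type H2A.Z alone was found at 1.88% of the genes with a listed start.

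The wild-type peak at the start of Ccnb1ip1 was wide for one without a knockout partner. Of 12114 wild-type H2A.Z peaks within 1 kb of a start, 1304 had no overlapping knockout peak, with a median width of 228.5 bp against 785 bp for those with a partner. Among wild-type peaks at starts that were at least as wide as the one at Ccnb1ip1, 80 of 6980 (1.15%, 95% Wilson interval 0.922 to 1.42%) lacked a knockout peak. This set holds all wider peaks too, so the share is not that of peaks of just this width. The gene still counted as having H2A.Z in both genotypes in its 5 kb window. This was because of the start of Ttc5, a neighbour whose start lies beyond the far end of Ccnb1ip1, with a wild-type peak of 460 bp, a knockout peak of 261 bp and an INO80 peak of 258 bp.

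Mus81 (chromosome 19, 5482561 to 5488389) encodes the nuclease of the minor crossover pathway. It held the widest INO80 peak at a start among these genes, 866 bp at 5487882 to 5488747, which reached from 368 bp upstream to 497 bp downstream of the start. The wild-type H2A.Z peak of 450 bp (5487856 to 5488305) lay to the downstream side alone, from 74 to 523 bp, so that it covered 49.0% of the INO80 peak. The nearest knockout H2A.Z peak was 12755 bp from it. INO80 with wild-type H2A.Z and no knockout H2A.Z was found at 1.74% of all starts. Over all starts, 6.21% of 9603 wild-type H2A.Z peaks that overlapped INO80 lacked a knockout peak, against 28.2% of 2511 that did not overlap it. These 2 sets were not matched for width, and start peaks without a partner were narrower (median 228.5 bp against 785 bp). Mus81 and Ccnb1ip1, the 2 genes whose start peak was wild type only, differ in INO80. Of wild-type peaks at starts at least as wide as the one at Mus81, 195 of 8610 (2.26%, 1.97 to 2.60%) lacked a knockout peak. Most of that set was wider still: 6980 were at least as wide as the peak at Ccnb1ip1, and 80 of those lacked a partner. The share is therefore not that of peaks of the width seen at Mus81.

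The region upstream of Mus81 held INO80 without H2A.Z. A 207 bp INO80 peak centred 1008 bp upstream, and a 1023 bp peak at the start of the neighbouring gene Cfl1, which encodes the actin-severing protein cofilin, overlapped no H2A.Z of either genotype. The wild-type H2A.Z peak nearest to the second was 2121 bp away. Over all starts, 94.2% of 9840 INO80 peaks overlapped wild-type H2A.Z.

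Shoc1 (chromosome 4, 59041984 to 59138983) encodes an XPF-like protein that binds branched recombination intermediates. Its peaks were H2A.Z peaks inside the gene, the wild-type one 20587 bp from the upper annotated end. The nearest INO80 peak was 70498 bp or more from each of them. In the wild type there was 1 peak of 925 bp (59117472 to 59118396), at percentile 81.5 of the widths in its list. In the knockout there were 2 peaks, of 163 bp (59117645 to 59117807) and 356 bp (59118087 to 59118442), separated by 279 bp. Together they covered 51.1% of the wild-type peak. Among wild-type H2A.Z peaks with a knockout partner, 4.05% of 23654 had 2 or more, and 2.65% of the 12844 that were not near a gene start. Both shares are over peaks of all widths and were not matched to the width of the peak in Shoc1. The upper knockout peak reached into a long noncoding RNA gene, Gm35527, as did the wild-type peak, so these 2 peaks cannot be assigned to Shoc1 alone.

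Tex11 (X chromosome, 100838648 to 101059639) encodes another protein of the main crossover pathway. It was the member with no peak of any list over its 220992 bp or the 5 kb on either side. Windows without any peak were found for 25.0% of all genes and for 50.7% of 966 X-linked genes. Of 867 genes at least as long as Tex11, 2.31% had none, and of the 40 X-linked genes among them 6 had none (15.0%).

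**Figure D2:**
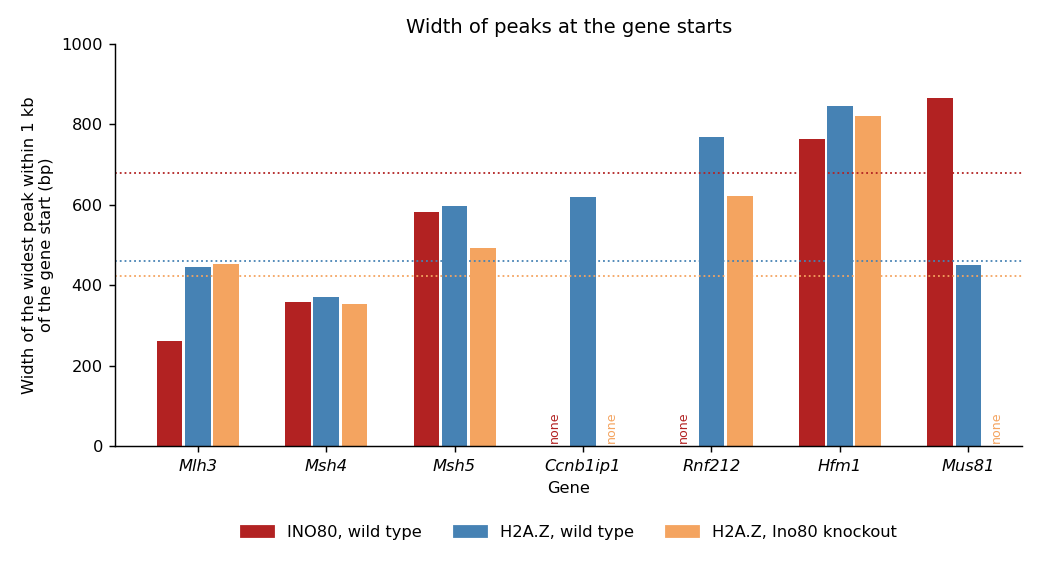
Width in bp of the widest peak within 1 kb of the start in each list, by gene; dotted lines are the median widths of the whole lists (678 bp for INO80, 460 bp for wild-type and 422 bp for knockout H2A.Z), and "none" marks a start without a peak. H2A.Z bars of both genotypes are close in height at Mlh3, Msh4 and Hfm1, and the knockout bar is missing at Ccnb1ip1 and Mus81.

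Widths at these starts were not large. The median width of peaks within 1 kb of a start was 776 bp for INO80, 719 bp for wild-type H2A.Z and 582 bp for knockout H2A.Z. The widest start peak of a gene was below that median at 4 of 5 genes for INO80, 5 of 7 for wild-type H2A.Z and 3 of 5 for knockout H2A.Z. Peak centres of start peaks lay downstream of the start in 69.4% of 12114 wild-type H2A.Z peaks. Among the crossover genes they did so at Mlh3, Msh5, Ccnb1ip1, Rnf212 and Mus81, and lay upstream at Hfm1 and Msh4.

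Where H2A.Z was present at a start in both genotypes, the knockout peak that overlapped the wild-type peak was of similar width or narrower. Its width, as a percent of the wild-type width, was 102% at Mlh3, 97.2% at Hfm1, 95.4% at Msh4, 82.6% at Msh5 and 80.9% at Rnf212. The value for Mlh3 leaves out its second knockout peak, which overlapped no wild-type peak. With that peak, H2A.Z covered 627 bp in the knockout and 445 bp in the wild type. The median over 10810 partnered wild-type peaks at starts was 89.7%, with quartiles of 71.4 and 102%, so all 5 genes lay within or close to the middle range. Shoc1, with 56.1% for both knockout peaks together, was at percentile 18.1 of all 23654 partnered peaks. In the windows as a whole, 8 of 12 wild-type H2A.Z peaks had a knockout partner (66.7%, 39.1 to 86.2%; 69.9% over all peaks) and 9 of 10 knockout peaks had a wild-type partner (90.0%, 59.6 to 98.2%; 93.4% over all peaks). INO80 peaks overlapped wild-type H2A.Z in 8 of 10 cases (80.0%, 49.02 to 94.3%; 83.0% over all peaks). The reverse held for 8 of 12 wild-type H2A.Z peaks (66.7%; 47.2% over all peaks and 79.3% over those at starts). The intervals cover counting error only.

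**Figure D3:**
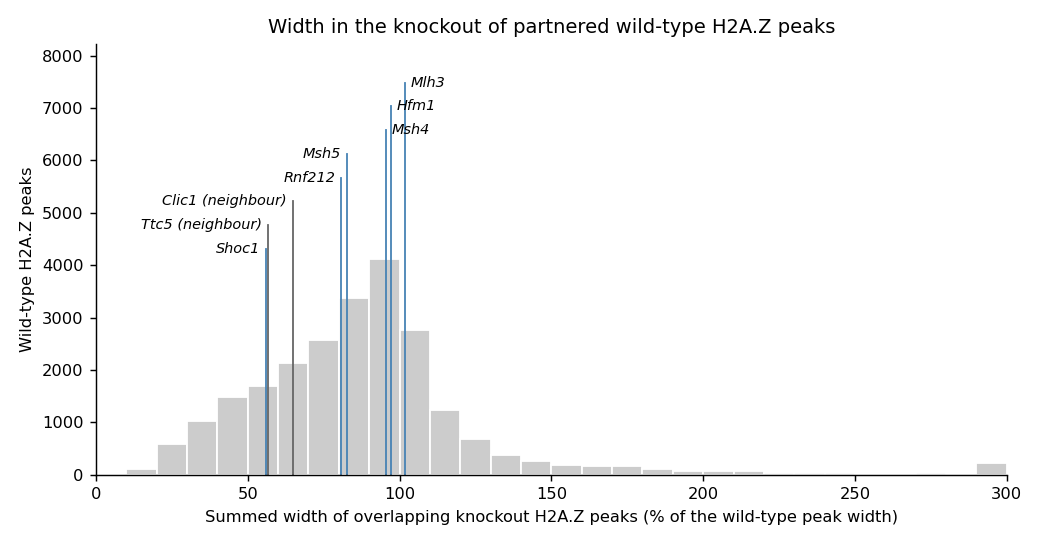
Histogram of the summed width of overlapping knockout H2A.Z peaks as a percent of the wild-type peak, over all partnered wild-type peaks (values of 290 or more in the last bar), with lines for the peaks in the windows of the crossover genes. Lines at the 5 gene starts run from 80.9% at Rnf212 to 102% at Mlh3; Shoc1 and the neighbours Ttc5 and Clic1 stand lower, between 56.1 and 64.8%.

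The DNA at these starts varied widely in CpG content, counted over 300 bases, from 250 before to 50 after the start. The window held 41 CpG at Hfm1 (percentile 96.8 of 32851 windows), 27 at Msh5, 22 at Rnf212, 22 at Mlh3 for the more upstream of its 2 listed starts, 13 at Ccnb1ip1, 7 at Mus81 and 6 at Msh4, against a median of 7. The start with the most CpG, at Hfm1, carried the widest H2A.Z peaks. At the other starts the widths were not in the order of CpG. Wild-type H2A.Z peaks were 597 bp wide at Msh5, 768 bp at Rnf212 and 445 bp at Mlh3. They were 620 bp at Ccnb1ip1, 450 bp at Mus81 and 371 bp at Msh4. The starts of lowest CpG content were those of Msh4, whose peaks lie upstream of the listed start in both genotypes, and Mus81, where H2A.Z was wild type only. Ccnb1ip1, where it was also wild type only, had 13 CpG. The H2A.Z peaks of Msh4 and Mus81 lie outside the counted windows, so these counts do not describe the DNA under them. The CpG-rich starts include Rnf212, which had no INO80.

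**Figure D4:**
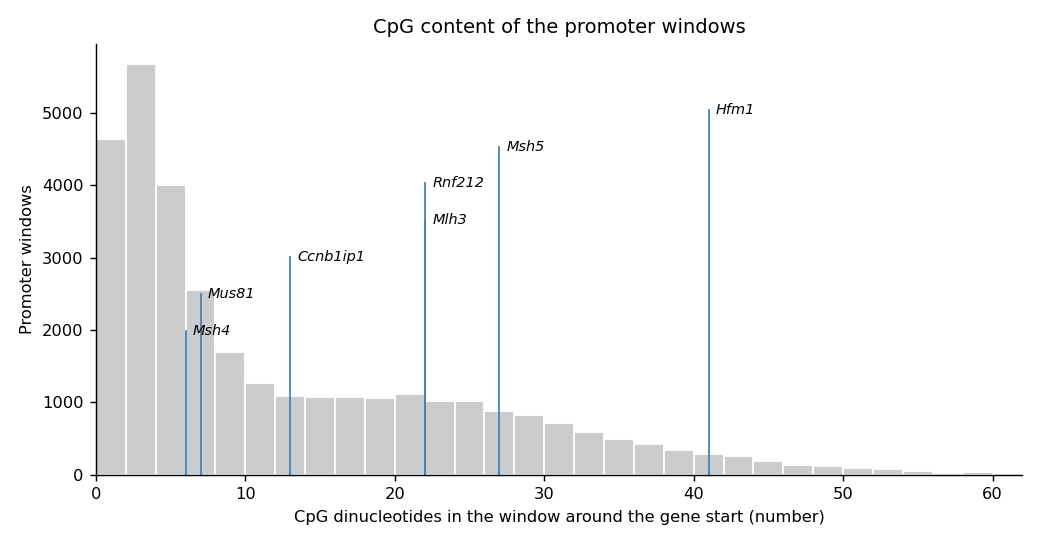
Number of CpG dinucleotides in the promoter windows of all genes (histogram), with lines for the 7 crossover genes. Msh4 and Mus81 lie at 6 and 7, next to the median of 7, and Hfm1 at 41.

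The same windows were searched on both strands for 6 short motifs. These were chosen after the promoter sequences had been seen, so the counts are descriptions and cannot test for an excess. The core GCATGCGC of NRF1, a factor of CpG-rich promoters, occurred at 4 of 7 genes, Mlh3, Ccnb1ip1, Rnf212 and Hfm1, and in 2.71% of all windows. The motif holds CpG itself. Among windows with 13 or more CpG, the least seen in a crossover window with the match, the share was 5.98%. Of the 7 genes, 5 reach that number. At Hfm1 a match in each direction overlaps in the run gcGCGCATGCGCgt shown in capitals above, and at Ccnb1ip1 the match lies after the start and outside the bases shown. The E2F core GGCGGGAA was found at Msh5 and Rnf212 (2.19% of all windows). The motif CNCCTCAG of STRA8, the factor that starts meiosis, was found at Msh5 and Hfm1 (7.94%); a further match at Hfm1 runs across the start and is not in capitals. CCATNTT of YY1, which binds DNA and associates with the INO80 complex, TGACGT of CREB-type factors and CAGTTG of MYB factors were found at 0 of 7 genes and in 16.1%, 7.51% and 13.7% of all windows. A match is a run of letters and does not show binding.

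Other genes of crossing over and of the resolution of joint molecules were described in the same way. Of 16 such genes, 15 were matched by symbol, and 15 of 15 had INO80, wild-type H2A.Z and knockout H2A.Z in the window (63.3%, 73.6% and 70.1% of all genes). Some of these peaks lie at neighbours: both INO80 peaks in the window of Prr19 do, at Pafah1b3 and Tmem145. At the 12 with a listed start, INO80 was present at 10, wild-type H2A.Z at 11 and knockout H2A.Z at 11 (56.0%, 63.9% and 60.9% of all starts), and no start was wild type only (3.61%). The widest INO80 start peaks were at Rmi1 (2392 bp), a subunit of the complex that dissolves double Holliday junctions, Eme2 (1305 bp), a partner of MUS81, the Holliday junction nuclease gene Gen1 (634 bp) and the kinase gene Cdk2 (632 bp). The peak at Rmi1 also reaches within 1 kb of the start of Hnrnpk, and the peak at Cdk2 also lies over the annotated neighbour Pmel. The peaks named for Eme2 and Gen1 lie outside those genes, over the neighbours Nme3 and Smc6, and the INO80 peak across the Eme2 start itself spanned 920 bp. At Rmi1 the wild-type H2A.Z peak was 490 bp wide and the knockout peak 400 bp. Eme1, which encodes the main partner of MUS81, was named after its values were seen. It had a wild-type H2A.Z peak of 476 bp, a knockout peak of 173 bp and an INO80 peak of 165 bp at its start. Mus81 itself lacked only the knockout peak. The Eme1 peaks also lie over the neighbour Mrpl27 and within 1 kb of its start. No test of the difference between these genes and the 9 was made.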

How the data were processed

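The authors deposited 3 peak lists with chromosome, start and end alone. The submitters' processing notes name the build mm10 and the tools Bowtie2, SAMtools, deepTools and MACS2. Not given in the sources used here are the peak threshold, the control and the way each pair of libraries was merged into 1 list. Per the labels' protocols, chromatin was cut with micrococcal nuclease, so peak outlines also reflect nucleosome positions. Whether libraries came from separate animals is not stated. Libraries were grouped by title. The inputs were not analysed here, nor was any single library.

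Genes and starts came from the RefSeq tables of GRCm38.p6. Overlap meant at least 1 bp. No test was run: counts stand beside the same count over all genes, and shares have 95% Wilson intervals. All 9 genes are named. Of 16 other pathway genes (1 more is not reported here), those with H2A.Z in 1 genotype or in neither, and the 4 with the widest INO80 start peak, were to be named. The members and lists were chosen with earlier results of these data known, and the motifs after the promoter sequences had been seen. Python 3.11.15, pandas 2.3.3, numpy 2.4.6, statsmodels 0.14.6 and matplotlib 3.10.9 were used. Overlaps were tested on simulated data and equalled those of bedtools 2.31.1 for 6 of 6 pairs of lists.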

Additional observations from a re-analysis of the deposited data

How the results depend on the processing

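Of 73 values under 9 alternative settings, 57 stayed within 1.5 times the main count or inside its interval and 16 did not. Narrowing the window to the gene body or to 1 kb on both sides, or leaving out peaks within 1 kb of another gene's start, made 2 genes wild type only (Mus81 and Ccnb1ip1), and widening it to 10 kb made it 0. Without a flank 100% of 7 knockout peaks had a wild-type partner and 100% of 5 INO80 peaks overlapped wild-type H2A.Z, as did 100% of 5 with neighbours' start peaks left out. Keeping the widest 50% of each list left INO80 at 2 genes and 2 starts, wild-type H2A.Z at 5 genes and 4 starts and knockout H2A.Z at 4 genes. It made 2 genes wild type only (Ccnb1ip1 and Shoc1) and 1 knockout only (Mlh3). Mus81 lost its wild-type peak of 450 bp and had no H2A.Z left. At Mlh3 the wild-type peak of 445 bp was dropped and the knockout peak of 453 bp was kept. Under this setting 33.3% of 3 INO80 peaks overlapped wild-type H2A.Z and 12.5% of 8 wild-type H2A.Z peaks overlapped INO80. Some partners were removed with the narrow peaks. Other peaks had no partner in the full lists either. These were the INO80 peak at Cfl1 and the wild-type H2A.Z peaks at the starts of Ccnb1ip1 and Rnf212 and within Shoc1. Shortening the wild-type list to the length of the knockout list changed no count of genes; it left 11 wild-type H2A.Z peaks in the windows, of which 72.7% had a knockout partner and 72.7% overlapped INO80. Overlap of at least 50% of the narrower peak changed no share. No paired analysis was possible because each group is 1 list, and for the same reason no replicate could be left out. The depth behind the lists is unknown.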
